A study of Mus musculus with 16 samples.

Results

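Odorant receptor genes lie in clusters along the mouse genome. The genes named Olfr828 to Olfr982, on chromosome 9, are together called the cluster here. Its members were taken by name, as the array probe sets whose annotated symbol is Olfr followed by a number from 828 to 982, with names of pseudogenes left out. There were 104 such probe sets, 1 per gene, among 1080 odorant receptor probe sets and 22206 tested probe sets in all. All 104 symbols were found in the RefSeq gene annotation, on chromosome 9. At gaps between neighbours of more than 1 Mb the members fell into 2 runs, with 30 members from Olfr828 to Olfr873 and 74 members from Olfr874 to Olfr982. By their MOR names, an older nomenclature that groups receptors by protein similarity, they belonged to 25 families, of which 13 had 3 or more members.

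The samples were 16 cell fractions sorted from olfactory mucosa of S100a5-tauGFP mice, a reporter line in which the S100a5 gene drives a green fluorescent protein fused to tau. All 24 mice, both sexes and aged 7 to 12 weeks, carried the reporter and spent 40 h singly in clean air chambers with an air flow of 3.1 L/min. From 26 h they received pulses of 10 s every 20 min, of 1-pentanethiol for the odor groups or of filtered air for the vehicle groups. Each pool of 3 mice gave a GFP+ and a GFP- fraction, so there were 4 arrays each of odor GFP+, odor GFP-, vehicle GFP+ and vehicle GFP- cells. The replicate is therefore a pool, and the spread among single mice was not measured. The sample labels name 1-pentanethiol whereas the design text of the series names bourgeonal, and the sample labels were followed here. The values are log2 signals of Clariom S arrays, and a difference of 1 is a 2-fold difference in signal.

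An olfactory sensory neuron expresses a single receptor gene, chosen from a single allele, and all neurons with the same choice send their axons to the same few glomeruli of the olfactory bulb. When an odorant binds, the receptor acts through the G protein Gnal and the adenylyl cyclase Adcy3 to open a cyclic nucleotide-gated channel, followed by a calcium-gated chloride channel. S100a5 encodes a calcium-binding protein whose expression in these neurons depends on their activity. GFP in the reporter line thus marks neurons with a recent history of activity, and the receptor RNAs that accompany GFP show which receptors those neurons had chosen. The sort was designed to ask which receptors respond to an odor in awake animals, and receptors may also differ between GFP+ and GFP- cells without any added odor.

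Mature neuron transcripts were strong in every group. Omp, the olfactory marker protein, averaged 18.35 in odor GFP+ and 18.32 in odor GFP- cells, and 18.32 in vehicle GFP+ and 18.27 in vehicle GFP- cells. S100a5 itself was higher in GFP+ than in GFP- cells, by 0.99 ± 0.12 (SE) in the odor pools and 0.87 ± 0.12 in the vehicle pools (limma adjusted p 7.8e-06 and 3.5e-05). The GFP- fractions also held other cells: all 6 neutrophil markers were lower in GFP+ cells in both sorts, with medians of -7.91 and -8.00. On single arrays the mean signal of those 6 markers ran from 7.07 to 8.75 in odor GFP+ against 14.85 to 15.93 in odor GFP- cells, and from 6.92 to 8.03 in vehicle GFP+ against 15.46 to 16.03 in vehicle GFP- cells. All 4 measured markers of globose basal and cycling cells and 4 of 7 markers of immature neurons were lower in GFP+ cells in both sorts as well. The part of these cells in the receptor differences was not tested. The GFP+ array of vehicle pool 2 stood apart. Its negative controls had a median of 7.28, whereas those of vehicle GFP+ pools 1, 3 and 4 had medians of 6.22 to 6.38, and its member median was 8.51 where theirs were 8.92 to 9.54.

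Most members of the cluster separated GFP+ from GFP- cells, in both directions, and did so with the odor and without it. In the odor pools 42 of 104 members were higher and 24 were lower in GFP+ cells, at a Benjamini-Hochberg adjusted p under 0.05 from limma over all tested probe sets. Of all tested probe sets 11.3% were higher and 11.9% lower. Both directions together made up 63.5% of members, beside 23.3% of all tested probe sets. In the vehicle pools 44 members were higher and 24 lower, beside 9.34% and 11.8% of all, or 65.4% of members beside 21.1% of all tested probe sets. The background shares move with scaling. After array medians were set equal, 13098 of all probe sets were higher and 2009 lower in the odor sort and 13003 and 2008 in the vehicle sort, whereas members came to 54 and 22, and to 57 and 21. Receptors outside the cluster passed about as often, 63.9% of 976 in the odor pools and 61.0% in the vehicle pools. The median difference over members was 0.53 in the odor and 0.49 in the vehicle pools, against 0.26 and 0.26 over all receptors and 0.14 and 0.11 over all probe sets. In such bulk fractions, fewer neurons that chose a receptor and less of its RNA per neuron cannot be told apart.

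The members behaved alike in both sorts. The sorts share no arrays, but the model used a common estimate of the spread per probe set for both, so their calls are not independent. A total of 37 were higher and 23 lower in GFP+ cells in both, beside 4.22% and 10.3% of all probe sets, and no member was higher in one sort and lower in the other. Another 6 passed in the odor sort alone, 8 in the vehicle sort alone and 30 in neither. Over the 104 members the odor sort differences correlated with the vehicle sort differences at r = 0.980 (Spearman 0.969), as a description across genes, which are not independent replicates. Within pools, the GFP+ fraction was above the GFP- fraction in all 8 pools for 41 members and below it for 23. This count was not made for other probe sets, so it cannot be called particular to the cluster. Of the members called in both sorts, 27 of 37 higher and 20 of 23 lower ones kept their call under every alternative analysis run.

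**Figure D1:**
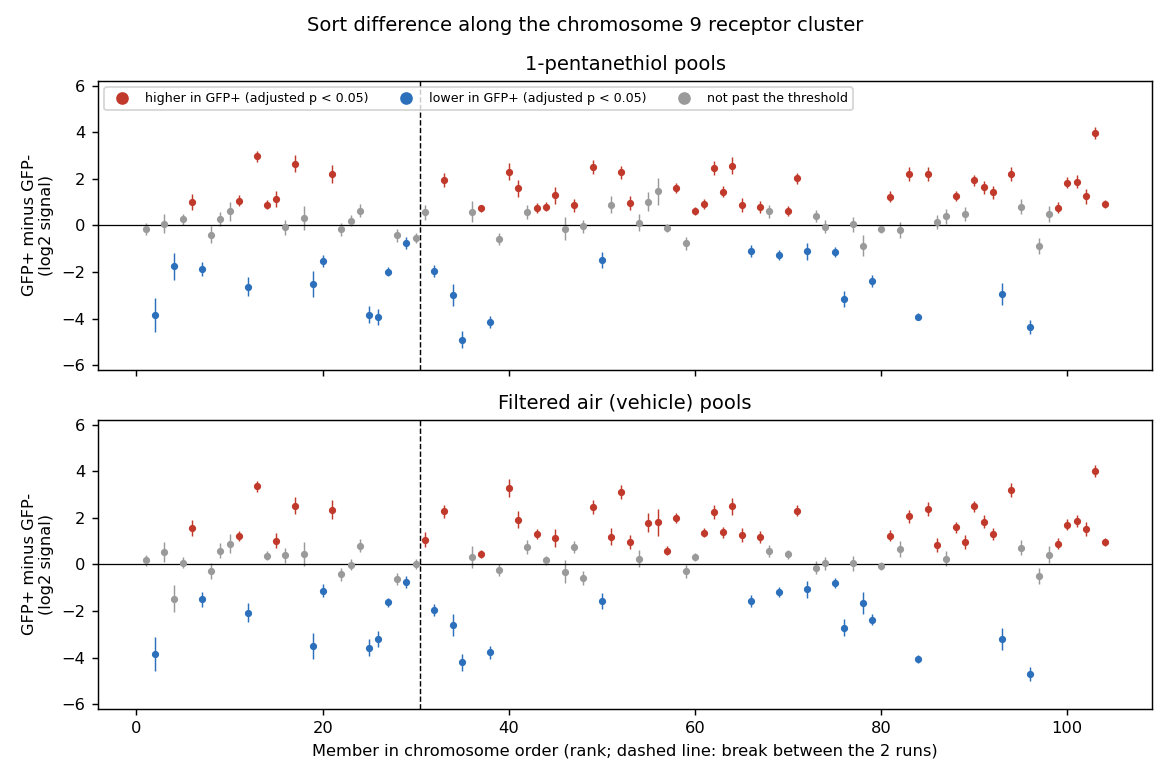
GFP+ minus GFP- difference in log2 signal (vertical axis, with its SE) for the 104 members in chromosome order (horizontal axis), in 1-pentanethiol pools (top) and vehicle pools (bottom). Red points passed the threshold as higher (42 and 44 members), blue points as lower (24 and 24), and the dashed line marks the break after the first 30 members.

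The receptor with the strongest enrichment in GFP+ cells was Olfr981, of family MOR223. It read 10.43, 10.63, 10.13 and 10.44 in odor GFP+ cells, against 6.04, 6.69, 7.02 and 6.01 in odor GFP- cells. In vehicle pools it read 9.90, 11.17, 10.40 and 10.88 in GFP+ cells, against 6.24, 6.85, 6.83 and 6.40 in GFP- cells. All 8 GFP+ values were well above all 8 GFP- values, which lay near the negative controls. The difference was 3.97 ± 0.27 in the odor and 4.01 ± 0.27 in the vehicle pools, a 15.7-fold and a 16.1-fold difference (limma adjusted p 6.8e-09 and 5.7e-09).

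Olfr849, the only member of MOR151, was strongly enriched and stood above the negative controls in both fractions. Its signals were 13.09, 13.29, 12.54 and 13.67 in odor GFP+ cells, against 9.99, 10.15, 10.02 and 10.56 in odor GFP- cells. In vehicle pools they were 13.12, 13.21, 13.16 and 13.77 in GFP+ cells, against 9.49, 9.78, 10.04 and 10.53 in GFP- cells. The groups were separated by about as much without the odor as with it: 2.97 ± 0.24 in the odor and 3.36 ± 0.24 in the vehicle pools (limma adjusted p 8.0e-08 and 1.8e-08).

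Further members with at least a 4-fold higher signal in GFP+ cells in both sorts included Olfr854, Olfr921, Olfr919, Olfr887, Olfr905, Olfr860, Olfr970, Olfr958 and Olfr934. Olfr887, of MOR162, differed by 2.31 ± 0.38 in the odor and 3.28 ± 0.38 in the vehicle pools. Olfr905, of MOR167, differed by 2.27 ± 0.29 in the odor and 3.11 ± 0.29 in the vehicle pools. Both had the larger value without the odor, and those gaps between the sorts are taken up with the odor comparisons. Olfr854 (2.65 and 2.52), Olfr921 (2.56 and 2.5), Olfr919 (2.45 and 2.24), Olfr860 (2.23 and 2.36), Olfr958 (2.19 and 2.37) and Olfr934 (2.02 and 2.31) had near equal differences in odor and vehicle pools. Olfr965, of MOR171, was 1.93 higher in odor GFP+ and 2.49 higher in vehicle GFP+ cells. Olfr901 and Olfr955 were also among the most enriched, at 2.51 and 2.21 in the odor and 2.48 and 2.06 in the vehicle pools, but their GFP- means lay under the negative control median, so these differences are limited by nonspecific signal.

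Depletion reached further than enrichment. Olfr878, the only member of MOR163, read 8.39, 8.45, 8.04 and 7.50 in odor GFP+ cells, against 12.96, 12.94, 12.88 and 13.23 in odor GFP- cells. In vehicle pools it read 9.29, 8.29, 9.85 and 7.48 in GFP+ cells, against 12.93, 13.01, 12.63 and 13.13 in GFP- cells. The GFP- values were tight, and no GFP+ value came near them. The difference was -4.91 ± 0.36 in the odor and -4.20 ± 0.36 in the vehicle pools, 30.0-fold and 18.4-fold lower in GFP+ cells (limma adjusted p 2.3e-08 and 1.4e-07).

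Olfr957, of MOR171, had the smallest adjusted p of the cluster in both sorts. It read 6.04, 6.38, 6.17 and 6.19 in odor GFP+ cells, against 9.98, 10.15, 10.48 and 9.85 in odor GFP- cells. The vehicle values were 6.30, 6.33, 6.19 and 5.77 in GFP+ cells, against 10.21, 10.53, 10.04 and 10.06 in GFP- cells. In GFP+ cells it thus did not exceed the negative controls, whose medians were 6.36 in odor GFP+ and 6.53 in vehicle GFP+ cells. Its differences were -3.92 ± 0.16 and -4.06 ± 0.16 in odor and vehicle pools (limma adjusted p 5.7e-11 and 3.7e-11), values that are limited by nonspecific signal in GFP+ cells. Olfr877, Olfr938 and Olfr943 were likewise called lower in both sorts with GFP+ means at or under the negative control median.

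The other strongly depleted members were Olfr884 (MOR162; -4.14 in odor and -3.78 in vehicle pools), Olfr869 and Olfr868 (MOR145; -3.93 and -3.21, and -3.83 and -3.58), Olfr943 (MOR171; -3.15 and -2.71) and Olfr877 (MOR161; -2.98 and -2.62). Olfr847, of MOR149, differed by -2.63 in the odor sort and -2.08 in the vehicle sort. Olfr857 (MOR146) differed by -2.51 and -3.50, and Olfr948 (MOR171) by -2.40 and -2.37, in odor and vehicle pools. The GFP+ mean of Olfr857 was 6.39 in odor pools, near the negative control median of 6.36, and 5.73 in vehicle pools, under 6.53. GFP+ means of Olfr869 (6.40 and 6.86) and Olfr884 (6.49 and 6.80) were close to these medians too. The differences of Olfr857, Olfr869 and Olfr884 may thus be limited by nonspecific signal. In all, 13 members were more than 4-fold higher and 13 more than 4-fold lower in GFP+ cells in both sorts. Neither count was made for other probe sets, so they cannot be called particular to the cluster.

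Some of the sharpest contrasts lay between members with near identical coding starts. The rest of their coding sequences was not compared. The first 50 coding bases could be compared for the 56 members whose RefSeq model begins with ATG at the annotated start (GRCm38.p6), and 10 of their 1540 pairs were at least 90% identical over those bases. The 5 pairs with at least 49 identical bases are shown, because they are the closest over these bases and range from opposite to like values. Capitals mark the bases at which a pair differs.
Olfr968, chr9:39772749-39772798, minus strand: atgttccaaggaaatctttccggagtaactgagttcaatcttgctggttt
Olfr972, chr9:39873277-39873326, plus strand: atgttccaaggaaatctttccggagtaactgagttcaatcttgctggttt
Olfr969, chr9:39795377-39795426, plus strand: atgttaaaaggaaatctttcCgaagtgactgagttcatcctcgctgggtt
Olfr970, chr9:39819641-39819690, plus strand: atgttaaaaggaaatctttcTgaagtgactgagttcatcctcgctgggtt
Olfr850, chr9:19478199-19478248, minus strand: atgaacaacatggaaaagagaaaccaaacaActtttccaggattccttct
Olfr854, chr9:19567333-19567382, minus strand: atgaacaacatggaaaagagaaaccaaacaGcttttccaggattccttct
Olfr951, chr9:39393793-39393842, plus strand: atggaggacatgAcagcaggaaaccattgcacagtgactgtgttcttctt
Olfr954, chr9:39461433-39461482, plus strand: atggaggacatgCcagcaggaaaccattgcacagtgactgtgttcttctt
Olfr961, chr9:39646728-39646777, plus strand: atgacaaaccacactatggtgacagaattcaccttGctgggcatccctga
Olfr963, chr9:39669059-39669108, plus strand: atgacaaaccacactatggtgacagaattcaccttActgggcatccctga

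Olfr968 and Olfr972, both of MOR171 and on opposite strands, were identical over these 50 bases and went in opposite directions. Olfr968 read 12.46, 13.10, 13.00 and 13.54 in odor GFP+ cells, against 11.47, 11.61, 11.74 and 11.57 in odor GFP- cells. Olfr972 read 9.22, 8.92, 8.61 and 8.61 in odor GFP+ cells, against 13.04, 13.52, 12.66 and 13.60 in odor GFP- cells. No array of one fraction overlapped the other for either gene, and the same held in the vehicle pools. The vehicle values of Olfr968 were 12.50, 12.49, 13.65 and 13.40 in GFP+ cells, against 11.45, 11.31, 11.82 and 12.23 in GFP- cells. Those of Olfr972 were 8.88, 8.40, 8.33 and 8.49 in GFP+ cells, against 12.95, 13.34, 12.46 and 14.19 in GFP- cells. Olfr968 was higher in GFP+ cells by 1.43 ± 0.27 and 1.31 ± 0.27, and Olfr972 differed by -4.36 ± 0.29 and -4.71 ± 0.29, in odor and vehicle pools. The sort differences of this pair lay 5.79 and 6.02 apart.

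The sequence before the coding start was also much alike in this pair. Of 255 aligned positions in the 250 bases upstream, 85.5% were identical. Capitals mark the bases of each gene that the alignment did not match, 32 in each.
Olfr968, chr9:39772799-39773048, minus strand: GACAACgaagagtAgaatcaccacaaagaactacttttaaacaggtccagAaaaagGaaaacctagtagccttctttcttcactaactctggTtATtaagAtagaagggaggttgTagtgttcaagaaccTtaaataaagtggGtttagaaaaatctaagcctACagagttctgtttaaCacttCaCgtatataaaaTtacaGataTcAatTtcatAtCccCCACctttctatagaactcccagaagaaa
Olfr972, chr9:39873027-39873276, plus strand: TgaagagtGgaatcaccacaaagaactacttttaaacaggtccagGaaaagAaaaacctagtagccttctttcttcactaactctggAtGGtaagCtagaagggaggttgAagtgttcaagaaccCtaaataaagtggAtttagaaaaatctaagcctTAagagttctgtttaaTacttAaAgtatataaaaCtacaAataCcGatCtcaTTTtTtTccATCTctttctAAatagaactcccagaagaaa

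Olfr969 and Olfr970, neighbours on the same strand, differed at 1 of the 50 coding bases and again in direction. Olfr969 read 9.57, 11.02, 8.41 and 8.87 in odor GFP+ cells, against 12.44, 12.98, 12.17 and 12.04 in odor GFP- cells. In vehicle pools it read 9.99, 9.74, 8.98 and 7.98 in GFP+ cells, against 12.29, 12.39, 12.25 and 12.59 in GFP- cells. Every GFP+ value of Olfr969 was below every GFP- value. Olfr970 gave 10.59, 9.97, 10.62 and 11.09 in odor GFP+ cells, against 8.43, 7.84, 8.52 and 8.67 in odor GFP- cells. In vehicle pools Olfr970 gave 10.32, 9.44, 10.97 and 10.89 in GFP+ cells, against 7.12, 7.07, 7.62 and 7.07 in GFP- cells. Here every GFP+ value was above every GFP- value. Olfr969 differed by -2.94 ± 0.46 and -3.21 ± 0.46 in odor and vehicle pools, while Olfr970 was higher by 2.20 ± 0.30 and 3.19 ± 0.30.

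Close coding starts did not always go with opposite values. Olfr961 and Olfr963, neighbours of MOR224, lay 0.77 and 0.63 apart, with Olfr961 higher by 1.27 ± 0.23 and 1.59 ± 0.23 and Olfr963 differing by 0.50 ± 0.31 and 0.96 ± 0.31 in odor and vehicle pools. Of these, Olfr963 passed in the vehicle sort alone (limma adjusted p 0.037, against 0.268 in the odor sort). Olfr850, close to Olfr854 over its coding start and also of MOR147, was higher by 0.89 ± 0.19 in the odor sort. Its vehicle difference of 0.37 ± 0.19 did not pass. Olfr951 and Olfr954, of MOR171, had the smallest gap of the 10 pairs in the odor sort, 0.036, and a gap of 0.717 in the vehicle sort. Olfr951 differed by -0.16 ± 0.17 and -0.07 ± 0.17 and Olfr954 by -0.19 ± 0.34 and 0.65 ± 0.34 in odor and vehicle pools, none of which passed, and the means of Olfr951 lay under the negative controls in every group. Among the 10 most similar pairs 2 were called in opposite directions and 1 in the same direction in both sorts. The median gap between the sort differences of these 10 pairs was 1.12 in the odor and 0.67 in the vehicle pools, against 1.59 and 1.65 for the 1451 pairs less than 70% identical. Pairs in between did not have smaller gaps than the latter in the vehicle pools. Their medians were 1.585 and 2.42 for 15 pairs from 80% to under 90% identical, and 1.773 and 1.961 for 64 pairs from 70% to under 80%. How far a probe set also reads RNA of a gene of like sequence was not tested, as probe sequences were not used here.

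**Figure D2:**
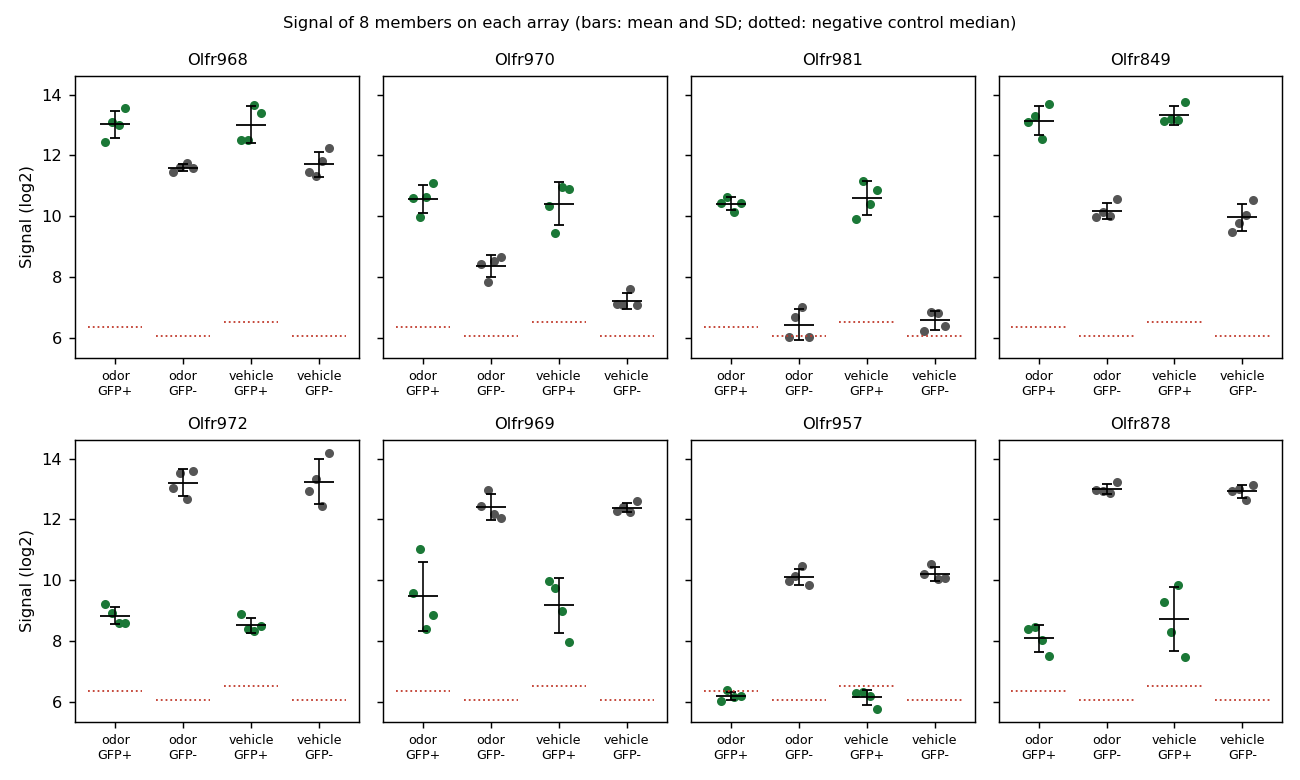
Log2 signal (vertical axis) of 8 members on each of the 16 arrays, with group means and SD (bars) and the negative control median of each group (dotted). Olfr968 and Olfr970 are above Olfr972 and Olfr969, whose coding starts are identical or near identical to theirs. The top row is higher and the bottom row lower in GFP+ (green) than in GFP- cells (grey), with either stimulus.

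Families within the cluster ranged from one-sided to evenly split. MOR223, the 5 neighbouring genes Olfr978 to Olfr982 at the end of the cluster, was the only family of 3 or more in which every member was higher in GFP+ cells in both sorts. Besides Olfr981, its differences were 1.83 and 1.71 for Olfr978, 1.88 and 1.87 for Olfr979, 1.25 and 1.51 for Olfr980 and 0.91 and 0.96 for Olfr982, in odor and vehicle pools. MOR224 (8 members, 4 higher in both sorts), MOR165 (7 members, 3 higher), MOR167 (3 members, 2 higher) and MOR170 (5 members, 1 higher) had no member called lower in both sorts. MOR145 leaned the other way: of its 5 members, all in the first run, 3 were lower in both sorts and none higher. MOR171, the largest family with 26 members, was split into 8 higher and 8 lower in both sorts, with differences from -4.36 to 2.45 in the odor pools and from -4.71 to 3.19 in the vehicle pools. In 6 of the 13 families with 3 or more members there were calls in both directions.

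**Figure D3:**
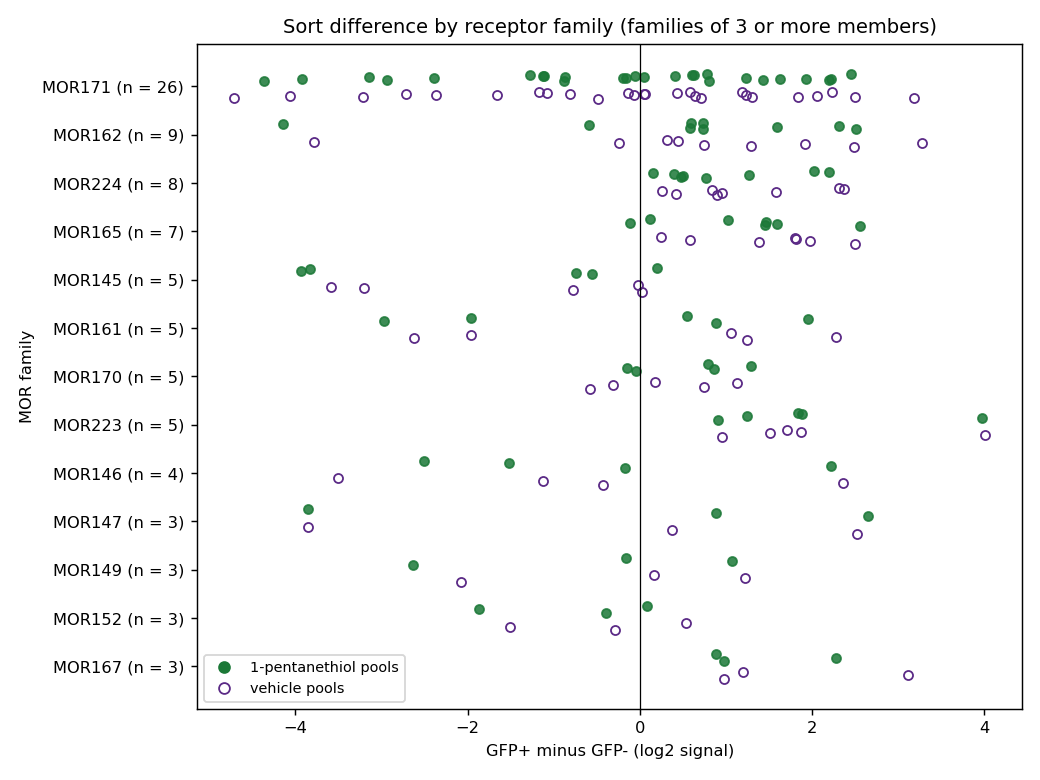
GFP+ minus GFP- difference in log2 signal (horizontal axis) for the members of each MOR family with 3 or more members (vertical axis), in 1-pentanethiol pools (filled) and vehicle pools (open). All 5 members of MOR223 lie above 0, whereas the 26 members of MOR171 reach from -4.36 to 2.45 in the odor pools.

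Position in the cluster gave a coarse pattern at most. In the first run the odor sort had 7 members higher and 10 lower in GFP+ cells, and the vehicle sort 6 higher and 9 lower. The second run had 35 higher and 14 lower in the odor pools, and 38 higher and 15 lower in the vehicle pools. Its median difference was 0.68 and 0.75 in odor and vehicle pools, against -0.12 and 0.05 for the first run, a contrast between runs that was not tested. The longest stretch of neighbours called in the same direction in both sorts was 6 members, Olfr976 to Olfr982, all higher in GFP+ cells. Next came 5 higher members from Olfr918 to Olfr922, then Olfr868 to Olfr870 with 3 lower and Olfr965 to Olfr968 with 3 higher.

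Gaps between direct neighbours were about as wide as those between other members. The median absolute gap in sort difference was 1.53 in both sorts over the 102 neighbouring pairs, against 1.47 in the odor and 1.56 in the vehicle pools over other pairs of the same run. Of these neighbours, 15 pairs were called in opposite directions in both sorts and 18 in the same direction. Among opposite neighbours the widest odor gap was 6.14, between Olfr957 and Olfr955 of its own family, whose vehicle gap was 6.12. On its other side Olfr957 lay 6.12 from Olfr958, of MOR224, in the odor sort and 6.43 in the vehicle sort. These gaps carry the limits given above, since the GFP+ signal of Olfr957 and the GFP- signal of Olfr955 were under the negative controls. Olfr847 and Olfr849 were 5.60 and 5.43 apart, Olfr876 and Olfr877 4.93 and 4.89, and Olfr883 and Olfr884 4.87 and 4.23. Olfr876, of MOR161 like Olfr877, was higher in GFP+ cells by 1.95 ± 0.29 and 2.28 ± 0.29. The call of Olfr883 as higher was weak, at 0.73 ± 0.15 and 0.45 ± 0.15 (limma adjusted p 0.0022 and 0.0496), and its vehicle call was lost without odor pool 1, 3 or 4 or vehicle pool 2, 3 or 4. The group means of Olfr883, from 5.12 to 5.85, all lay under the negative control medians, so its gap from Olfr884 is limited by nonspecific signal. The gap of Olfr876 and Olfr877 has that limit too, from the GFP+ signal of Olfr877.

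Most members had signal above the negative controls. Signals of different probe sets are not on a common scale, so no order of RNA amounts among members can be read from them. In odor GFP+ and odor GFP- cells 85 and 89 members had means above the negative control median, and in vehicle GFP+ and vehicle GFP- cells 83 and 89. The member median was 8.93 ± 0.05 in odor GFP+ and 8.73 ± 0.12 in odor GFP- cells, and 9.05 ± 0.44 in vehicle GFP+ and 8.64 ± 0.07 in vehicle GFP- cells (SD over 4 arrays).

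The brightest probe sets, which need not be those of the most abundant RNAs, were those of Olfr835, Olfr893, Olfr968, Olfr958 and Olfr851. Olfr835, of MOR150, averaged 13.53 ± 0.57 in odor GFP+ and 12.53 ± 0.39 in odor GFP- cells, and 13.94 ± 0.78 in vehicle GFP+ and 12.37 ± 0.45 in vehicle GFP- cells (SD, n = 4). Its difference of 1.00 ± 0.35 in the odor sort only just passed (limma adjusted p 0.0496), and the call was lost without any of odor pools 1 to 4 or vehicle pools 1 to 3. In the vehicle sort it was 1.57 ± 0.35 (limma adjusted p 0.0034). Olfr851 (1.14 and 1.02) and Olfr893 (1.29 and 1.13) passed in both sorts too, but lost the odor call without odor pool 2 or 4, and the vehicle call without vehicle pool 1, 3 or 4. Olfr893 also lost its vehicle call without odor pool 2.

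The dimmest probe sets were those of Olfr834, Olfr862, Olfr891, Olfr936 and Olfr917, all under the negative control median in each group. Olfr834 averaged 4.00 ± 0.51 in odor GFP+ and 3.75 ± 0.06 in odor GFP- cells, and 3.80 ± 0.41 in vehicle GFP+ and 3.73 ± 0.37 in vehicle GFP- cells. Neither it nor Olfr862 or Olfr936 passed in any comparison. Olfr891 (0.80 ± 0.20) and Olfr917 (0.61 ± 0.17) passed as higher in the odor sort, although both fractions lay under the negative controls. The first of these calls was lost without odor pool 4, and the second without odor pool 1 or 2.

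**Figure D4:**
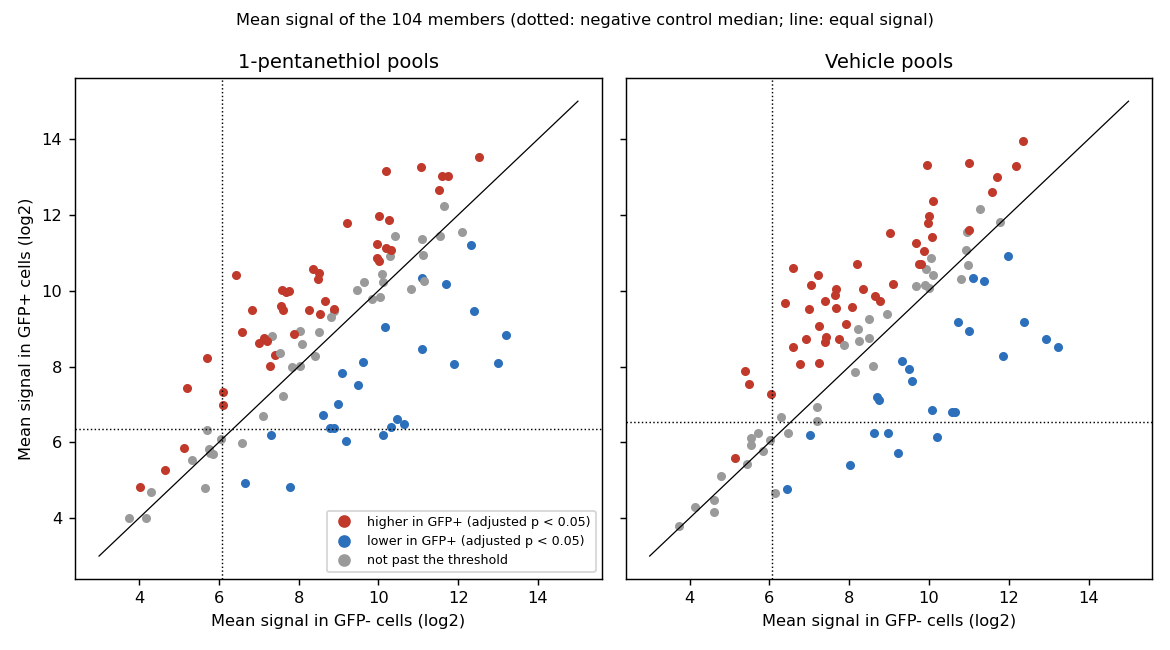
Mean log2 signal of the 104 members in GFP+ cells (vertical axis) against GFP- cells (horizontal axis), in 1-pentanethiol pools (left) and vehicle pools (right), with the negative control medians (dotted) and the line of equal signal. Members called higher (red) lie above the line and members called lower (blue) below it, and the dimmest probe sets, such as that of Olfr834 near 4, lie under the negative controls in both fractions.

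The widest spread among replicate pools belonged to Olfr829 of MOR147. It read 8.23, 6.64, 7.07 and 4.48 in odor GFP+ cells, against 10.88, 10.63, 9.79 and 10.53 in odor GFP- cells. In vehicle pools it read 8.58, 6.72, 7.24 and 4.65 in GFP+ cells, against 10.77, 10.63, 9.79 and 11.41 in GFP- cells. The GFP+ values spread widely and nearly alike in odor and vehicle pools of the same replicate number, but all lay below the GFP- values. The difference was -3.85 ± 0.73 in the odor and -3.85 ± 0.73 in the vehicle pools (limma adjusted p 0.00075 and 0.00073). Its GFP+ means, 6.605 in odor and 6.798 in vehicle pools, were close to the negative controls, so these differences may be limited by nonspecific signal. Over all members, the deviations of GFP+ arrays with the same number from their group means correlated with r from 0.134 to 0.568 between odor and vehicle, and from 0.073 to 0.369 for GFP- arrays. The labels do not say what a replicate number stands for.

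Olfr857, of MOR146, had the next widest spread, with 7.87, 4.91, 6.0 and 4.14 in vehicle GFP+ cells, against 9.57, 8.93, 8.46 and 9.97 in vehicle GFP- cells. Its odor values were tighter, at 6.96, 5.82, 6.65 and 6.12 in GFP+ cells, against 8.97, 8.96, 9.14 and 8.50 in GFP- cells. Olfr832, of MOR153, varied most in odor GFP- cells, where it read 6.55, 4.65, 7.96 and 7.50, against 5.83, 4.54, 5.03 and 4.27 in odor GFP+ cells. The odor fractions of Olfr832 overlapped, and its odor call (-1.75 ± 0.58, limma adjusted p 0.039) was lost without odor pool 3 or 4 or vehicle pool 3. In the vehicle pools its difference of -1.47 ± 0.58 did not pass (limma adjusted p 0.084).

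With odor set against vehicle, no member of the cluster passed the threshold. In GFP+ cells 0 of 104 members passed, beside 0.0766% of all tested probe sets, and 3 members had an unadjusted p under 0.05 from limma, beside 7.15% of all. Without the GFP+ array of vehicle pool 2, or without that pool, 9 members had an unadjusted p under 0.05 there, and 0 passed. In GFP- cells 0 passed, beside 0.0495% of all, and 5 had an unadjusted p under 0.05, beside 2.61%. These counts come from the main model, which did not pair arrays by replicate number. With that number as a block, 14 members had an unadjusted p under 0.05 in GFP- cells and 0 passed. The smallest limma adjusted p there was 0.136. In GFP+ cells the same block gave 3 members at an unadjusted p under 0.05, and 0 passed (smallest limma adjusted p 0.891). The gain, which is the sort difference with the odor minus the sort difference without it, is the measure the assay turns on. Its count was 0 of 104 as well, beside 0.063% of all, with 3 members at an unadjusted p under 0.05, beside 4.65%. That number was 12 without the GFP+ array of vehicle pool 2, 14 without vehicle pool 2, 12 with array weights and 7 with the pool as a block, and 0 members passed in each of these fits, where the smallest limma adjusted p was 0.475. In the main model all 14 probe sets that passed in the gain were odorant receptors, 1.3% of 1080 receptor probe sets. Of these 1080, 109 had an unadjusted p under 0.05 from limma.

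Member gains ran from -0.99 (Olfr970) to 1.00 (Olfr857), and their precision allows a bound. The gain of Olfr857 may be limited by nonspecific signal, since its GFP+ means lay near or under the negative controls. The 14 probe sets with a gain past the threshold all had gains of 1.52 or more, and 98 of 104 members had a 95% interval that ended below that. The interval ended below 1, a doubling of the enrichment, for 75 members, and the median distance from a gain to the end of its interval was 0.87. Smaller gains could not be told from 0 for many members with 4 pools per group. The intervals are not adjusted for the number of probe sets tested, so a gain whose interval leaves out 0 need not pass the threshold. In GFP+ cells the 95% interval of the odor minus vehicle difference lay within 1 of 0 for 78 members.

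**Figure D5:**
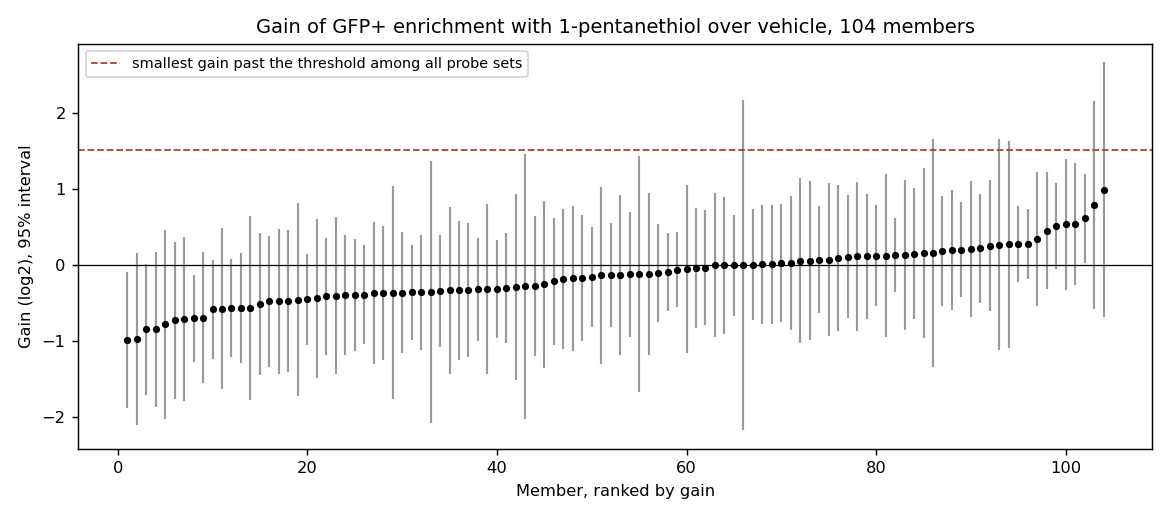
Gain in log2 units (vertical axis, points with 95% intervals from limma) of the 104 members ranked by gain (horizontal axis). The gains run from -0.99 to 1.00, and the dashed line marks 1.52, the smallest gain past the threshold among all tested probe sets; 98 intervals end below it.

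Among the 5 members with the smallest p for the gain, none past the threshold, Olfr891 and Olfr850 had gains above 0, with small values or low signal. Olfr891 had a gain of 0.62 (95% interval 0.03 to 1.21), the only interval above 0. It read 5.25, 4.37, 4.71 and 4.91 in odor GFP+ cells, against 4.01, 4.46, 4.50 and 4.25 in vehicle GFP+ cells. These values overlap and lie under the negative controls. Olfr850 had a gain of 0.51 (-0.05 to 1.08).

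Olfr913 and Olfr970 had intervals below 0. Olfr913, of MOR165, had a gain of -0.69 (-1.27 to -0.12). It read 11.50, 11.48, 11.65 and 11.57 in odor GFP- cells, against 11.26, 11.25, 10.57 and 10.94 in vehicle GFP- cells. Its odor GFP- arrays were all above the vehicle GFP- arrays, by 0.54 ± 0.19 on average, while in GFP+ cells the odor minus vehicle difference was -0.15 ± 0.19. Olfr970 had a gain of -0.99 (-1.88 to -0.09) and read 8.43, 7.84, 8.52 and 8.67 in odor GFP- cells, against 7.12, 7.07, 7.62 and 7.07 in vehicle GFP- cells. This odor minus vehicle difference in GFP- cells, 1.15 ± 0.30, was the largest of the cluster, without overlap between the arrays, and had a limma adjusted p of 0.90. In GFP- cells, odor and vehicle arrays did not overlap for 3 of 104 members, beside 580 of 22206 tested probe sets. Olfr905 had a gain of -0.84 (-1.70 to 0.02) and an odor minus vehicle difference of 0.65 ± 0.29 in GFP- cells.

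In GFP- cells Olfr890 (0.49 ± 0.22) and Olfr923 (-0.57 ± 0.26) completed the 5 members with the smallest p. In GFP+ cells those were Olfr891 (0.51 ± 0.20), Olfr916 (-0.63 ± 0.29), Olfr954 (-0.73 ± 0.34), Olfr887 (-0.78 ± 0.38) and Olfr878 (-0.63 ± 0.36), with a smallest limma adjusted p of 0.63. Olfr887 read 9.81, 9.15, 8.50 and 8.15 in odor GFP+ cells, against 9.68, 9.17, 10.04 and 9.84 in vehicle GFP+ cells. Its pools 3 and 4 were lower with the odor, whereas pools 1 and 2 overlapped the vehicle values.

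Genes through which these receptors signal were measured alongside them. Of 19 measured genes of olfactory transduction, the odor sort had 6 higher and 2 lower in GFP+ cells and the vehicle sort 2 higher and 2 lower. That was 42.1% and 21.1% of the list, beside 23.3% and 21.1% of all tested probe sets, so the vehicle share was that of all probe sets. Median differences were 0.15 and 0.14, beside 0.135 and 0.113 over all probe sets. Pde1c, a calcium-activated phosphodiesterase of the cilia, was higher by 0.60 ± 0.10 and 0.69 ± 0.10, and Ano2, the calcium-gated chloride channel, by 0.48 ± 0.11 and 0.36 ± 0.11. Cngb1, a subunit of the transduction channel, was higher by 0.65 ± 0.16 in the odor pools, and Pde4a, Camk2a and Slc24a4, which act on cAMP and calcium, by 0.59, 0.63 and 0.45. Gnas, a stimulatory G protein also found outside mature neurons, differed by -3.30 and -3.22, and the receptor kinase Grk3 by -0.81 and -0.81. The GFP+ means of Grk3, 5.36 in odor and 5.39 in vehicle pools, lay under the negative control medians, so its differences are limited by nonspecific signal.

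Among 20 probe sets of receptor trafficking and receptor choice, 0 were higher and 3 lower in the odor pools, and 1 was higher and 2 lower in the vehicle pools. This was 15% in each sort, fewer than the 23.3% and 21.1% of all tested probe sets. Lbr, the lamin B receptor, whose loss from the nuclear envelope accompanies receptor choice, differed by -1.89 in both sorts. The heterochromatin protein gene Cbx5 differed by -0.62 and -0.45, and Kdm1a, a histone demethylase needed for receptor choice, by -0.35 in the odor pools. Reep1, a helper of receptor transport to the membrane, was higher by 0.54 in the vehicle pools. None of the genes on either list passed in the odor comparisons or the gain.

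Receptor promoters are known for homeodomain sites, bound by Lhx2 among others, and for Ebf sites. For 90 of the 104 members RefSeq windows of 250 bases before and 50 after the annotated start were searched on both strands. The annotated start mostly coincides with the coding start, so that these windows need not hold the promoter. The letters TAATTA occurred in 22 of 90 member windows, 24.4%, against 18.6% of 944 receptor windows and 5.29% of 32851 windows of all genes. Member windows also had a lower GC content, 34% against 53.8% over all genes, but receptor windows in general had 36.1%. The letters were present in 21.2% of 33 windows of members higher in both sorts and in 26.3% of 19 windows of members lower in both. The Ebf consensus motif was in 0 of 90 member windows, against 0.53% of receptor windows and 0.9% of all windows.

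Other receptor clusters gave other balances of higher and lower members. Olfr763 to Olfr827 on chromosome 10 had 2 higher and 26 lower of 54 in the odor pools, and 4 higher and 17 lower in the vehicle pools. On chromosome 7, Olfr467 to Olfr542 had 35 higher and 3 lower of 58, and 36 higher and 4 lower. The chromosome 2 cluster, Olfr983 to Olfr1318, was nearest to the chromosome 9 members, with 110 higher and 68 lower of 244 in the odor pools, and 101 higher and 63 lower in the vehicle pools. It also held 5 of the 14 probe sets with a gain past the threshold, and the chromosome 9 cluster held 0. These differences between clusters were not tested.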

How the data were processed

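RNA of sorted olfactory mucosa cells was measured on 16 Clariom S arrays, 1 for each GFP+ and GFP- fraction of 8 pools of 3 mice. Biotinylated cRNA was made from 50 to 100 ng of total RNA, per the labels' protocols. The authors deposited log2 signals per probe set, from 2.51 to 18.85, and the submitters' processing notes name Affymetrix Expression Console. The version, the normalization and the array design's genome build were not given in the sources used here, and precision is limited by the number of arrays. Values were used with no further scaling or filter, and 5222 negative control entries gave the level of nonspecific signal.

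A model of the 4 group means was fitted by limma 3.58.1 (R 4.3.3; empirical Bayes moderation) to the 16 arrays, on 22206 probe sets outside the control classes. Tests were two-sided, and the threshold was a Benjamini-Hochberg adjusted p under 0.05 over all of them. The 5 comparisons were GFP+ minus GFP- in odor and in vehicle pools, odor minus vehicle in each fraction, and the gain. The steps were tested on simulated data. Members were named as the up to 12 highest and 12 lowest of each sort without overlap between fractions, the 5 with the smallest p where fewer passed, the 5 with the highest and lowest means, the 3 with the largest SD, and the 6 opposite neighbours with the widest gaps. Other members named in stretches, families and similar pairs were chosen after their values were seen.

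Members and lists were chosen with earlier results of these data known. MOR families, gene order and the printed sequences come from RefSeq (GRCm38.p6). Protein sequences were not used here, and the comparison of coding starts that replaced them was chosen after values were seen. Alternatives were other scalings, a filter on dim probe sets, other variance models, blocks, and leaving out pools. GFP+ and GFP- arrays of a pool come from the same mice and so are paired: their deviations from the group means correlated with r from 0.0119 to 0.224. Replicate numbers shared by odor and vehicle pools had r of 0.0311 to 0.256 for GFP+ arrays and 0.186 to 0.290 for GFP- arrays. Over the members alone r was 0.134 to 0.568 for GFP+ and 0.073 to 0.369 for GFP- arrays. The members thus gave no ground for pairing GFP- arrays only. The main model used neither kind of pair. Replicate numbers entered as a block only among the alternatives, in GFP+ and in GFP- cells. Arrays of a group correlated with r from 0.984 to 0.995, and 0 pairs were identical.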

Additional observations from a re-analysis of the deposited data

Results flagged for a closer look

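Among the 45 named members, 180 groups of 4 arrays were searched for a single array far from the other 3, by Dixon's ratio at its 95% critical value. The search found 14, where chance gives about 1 in 20 groups, and 1 of them was on the GFP+ array of vehicle pool 2. In odor GFP+ cells, pool 4 was high for Olfr955 (8.57, others 7.02 to 7.05) and for Olfr913 (11.82, others 11.29 to 11.33). There, pool 1 was high for Olfr884 (7.21, others 6.19 to 6.34), pool 2 low for Olfr890 (7.52, others 8.13 to 8.19) and pool 3 low for Olfr893 (11.89, others 13.29 to 13.48). In odor GFP- cells, pool 4 was low for Olfr948 (8.19, others 8.95 to 9.02) and pool 2 low for Olfr851 (10.84, others 11.69 to 11.77).

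In vehicle GFP+ cells, pool 4 was high for Olfr849 (13.77, others 13.12 to 13.21), Olfr860 (11.01, others 9.64 to 9.84) and Olfr835 (15.11, others 13.51 to 13.60). Pool 3 was high there for Olfr847 (10.44, others 8.22 to 8.54), and pool 2 low for Olfr916 (9.60, others 10.96 to 11.12). In vehicle GFP- cells, pool 3 was high for Olfr970 (7.62, others 7.07 to 7.11) and pool 1 low for Olfr891 (3.96, others 4.16 to 4.20).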

How the results depend on the processing

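No alternative moved a count of members past the adjusted threshold by more than 1.5 times, and no member called in both sorts changed direction. Higher members numbered 31 to 54 in the odor and 35 to 57 in the vehicle sort, and lower ones 21 to 26 and 20 to 26, while the odor comparisons and the gain kept 0 in each. With pools left out in turn the counts were 31 to 44 higher and 21 to 24 lower in the odor sort, and 35 to 48 higher and 20 to 24 lower in the vehicle sort. Without the GFP+ array of vehicle pool 2 they were 44 and 25, and 51 and 21. Array medians set equal shifted all probe sets by 0.326 and 0.348 in odor and vehicle sort. Receptor medians set equal shifted all by -0.062 and -0.228. The member median moved to 9.093 and 9.044 in odor GFP+, 8.57 and 8.603 in odor GFP- and 8.469 and 8.51 in vehicle GFP- cells with array medians set equal and with quantile normalization.

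The sort difference changed sign in some alternative for 14 of 104 members in the odor and 15 of 104 in the vehicle sort, 0 of which had passed there. In the odor sort Olfr862 came to 0.159 with array medians set equal and ran from -0.341 to 0.109 with 1 pool left out, the highest without odor pool 4. In the vehicle sort Olfr834 came to -0.023 with quantile normalization, -0.159 with receptor medians set equal, and -0.001 without vehicle pool 4, and ran from -0.234 (without vehicle pool 1) to 0.284 with 1 pool left out. Olfr891 came to -0.049 with receptor medians set equal. Olfr936 came to 0.211 with array medians set equal, 0.022 without the GFP+ array of vehicle pool 2, and from -0.329 to 0.177 with 1 pool left out, the highest without vehicle pool 4. Olfr954 reached 0.134 in the odor sort, and Olfr951 ranged from -0.296 to 0.169 in the odor and from -0.299 to 0.276 in the vehicle sort. The cause was not tested. Calls lost in some alternative were those of Olfr835, Olfr851, Olfr883, Olfr890, Olfr893, Olfr906, Olfr922, Olfr924, Olfr976 and Olfr980 among the 37 higher and of Olfr872, Olfr935 and Olfr938 among the 23 lower members. With the pool as a replicate block, 45 members were higher and 26 lower in the odor sort, 45 and 24 in the vehicle sort, and 0 passed in the gain. With the replicate number as a block 0 passed in GFP+ and in GFP- cells. These blocks moved no count of members past the adjusted threshold by more than 1.5 times, but the numbers at an unadjusted p under 0.05 were 14 against 5 in GFP- cells and 7 against 3 in the gain. Signal under the negative controls limits 15 to 21 members per group.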

Other observations

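Probe sets of pseudogenes in the same range of names, with the suffix -ps, were left out of the members. Olfr911-ps1 had a GFP+ minus GFP- difference of 1.77 ± 0.40 in odor pools and 1.57 ± 0.40 in vehicle pools (limma adjusted p 0.0039 and 0.0091). Olfr856-ps1 was higher by 0.98 ± 0.17 and 0.85 ± 0.17 (limma adjusted p 0.00031 and 0.0012), although its means of 6.06 in odor GFP+ and 5.08 in odor GFP- cells, and of 5.62 in vehicle GFP+ and 4.76 in vehicle GFP- cells, lay under the negative control medians. Olfr947-ps1 differed by 0.36 ± 0.35 and 0.28 ± 0.35 and did not pass. None of them passed in the odor comparisons or the gain.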
